A study of Homo sapiens with 5 samples.

Results

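Cells of the MDA-MB-468 sample labelled HA FOSL1 were divided by how much FOSL1 message each cell carried, and the transcriptomes of the groups were compared. Of 14642 kept cells in the pool, 1826 belonged to HA FOSL1. Cells were kept from 1500 detected genes upward, if mitochondrial genes made up no more than 20% of their UMIs (unique transcript tags). The groups were chosen by the cell's own FOSL1 UMIs per 10000 UMIs. Cells with no FOSL1 UMI formed the zero group (933 cells), cells above 0 and below 1 formed the low group (540 cells), and cells at 1 or more formed the high group (353 cells). FOSL1 itself therefore gives no result between these groups, and its values below are a description.

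MDA-MB-468 is an established human line of triple-negative breast cancer. The pool had 5 named samples of this line: the controls HA control and VPR control, HA FOSL1, and VPR FOSL1 with the guide RNAs gRNA2 and gRNA3. The submitters' protocol counts more stained samples than it names. The labels name HA and VPR without spelling them out, and they give no promoter, clone number or culture replicate. They mention a 5-fluorouracil treatment in the series without stating that these samples received it. Each group is 1 sample. Groups inside HA FOSL1 have no replicate check, and their intervals cover counting error only.

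FOSL1 encodes FRA-1, a FOS-family subunit that pairs with JUN proteins to form the AP-1 transcription factor. AP-1 binds a short palindromic DNA motif and acts downstream of EGFR and MAPK signalling. FRA-1 is known in basal-like breast cancer for genes of adhesion, invasion and inflammation. The message counted here is a tag at the 3' end, and the labels do not say which 3' end the introduced FOSL1 carries. A cell without a FOSL1 UMI may therefore still express the gene.

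FOSL1 message was spread unevenly over the HA FOSL1 cells. No FOSL1 UMI was counted in 51.1% of the cells, whereas 26.8% would be empty if every cell had the same level and only counting varied. There was 1 UMI in 356 cells, 2 to 3 in 308, 4 to 9 in 186 and 10 to 26 in 43. The 182 cells with the most FOSL1 UMIs, 10% of the cells, held 52.7% of the FOSL1 UMIs and 15.3% of all UMIs. Over all kept cells FOSL1 stood at 63.5 CPM (UMIs scaled to an equal total; 95% Poisson interval 61.1 to 66.0) in HA FOSL1 and at 8.96 CPM (8.20 to 9.77) in HA control. At least 1 FOSL1 UMI was found in 48.9% of HA FOSL1 cells (exact binomial interval 46.6% to 51.2%) at a median depth of 20768.5 UMIs. The share was 10.7% (9.72% to 11.8%) in HA control at a median of 15401.5 UMIs. Free RNA in near-empty droplets of the pool held FOSL1 at 63.4 CPM (53.1 to 75.1).

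**Figure D1:**
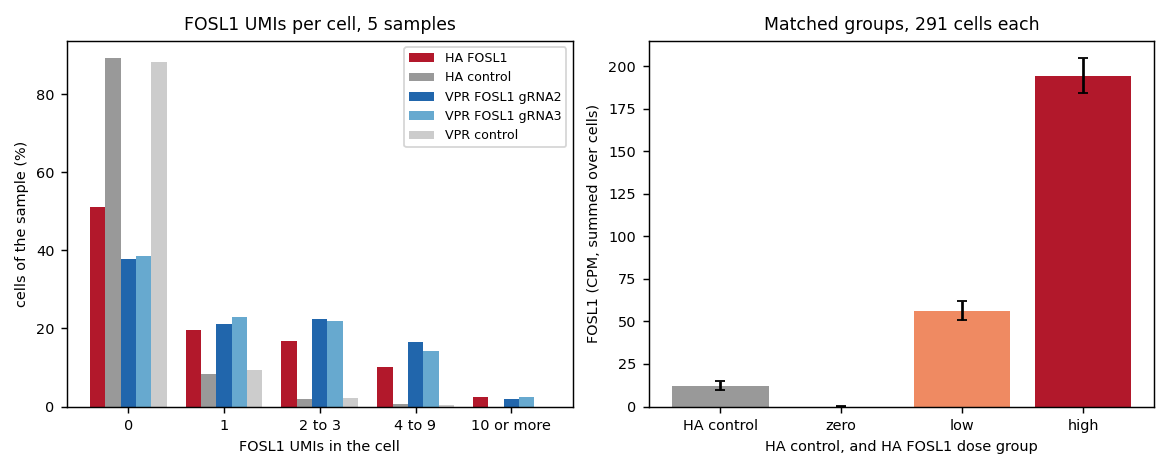
Left, percentage of the kept cells of each of the 5 samples by the number of FOSL1 UMIs in the cell. Right, FOSL1 in CPM summed over depth-matched cells per group with 95% Poisson intervals: HA control 12.1, zero 0, low 56.1 and high 194.3, an order that the choice of groups sets.

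A cell with 1 FOSL1 UMI can fall in the low group only above 10000 UMIs, so the groups differed in depth. Median total UMIs were 18756 in zero, 23430.5 in low and 25474 in high cells. Equal numbers of cells were therefore drawn from the 3 groups and from HA control within 11 strata of total UMIs above 10000. Each group then held 291 cells, with medians from 23944 to 24076 UMIs and summed totals from 7268798 to 7368673 UMIs. The matched groups differed little in mitochondrial share (medians 9.72% in zero, 9.45% in low and 9.27% in high cells, 10.7% in HA control). The median number of UMIs of the cell's own hashtag was 613 in zero, 723 in low and 767 in high cells, and its part in the results was not tested. The line's epithelial genes were present in all groups: KRT8 stood at 917, 1995, 2181 and 2129.6 CPM in control, zero, low and high cells. Summed markers of fibroblasts, endothelium and immune cells stayed between 18.2 and 22.6 CPM in the 4 groups, with 8 or 9 of the 15 genes at 0.

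Cells with high FOSL1 had more OLFML3, HMGA2, FST and LAMB3 message than zero cells of the same sample, and less IGFBP5, IGFBP2 and PI3. Of 5729 genes at a mean of 20 CPM or more, 261 (4.56%) were higher by 1.5-fold or more in high cells and 133 (2.32%) were lower, each with a counting interval that leaves out 0. The median of all these genes was 0.04 on the log2 scale. The 20 CPM mean is over both groups compared. A gene can reach it through its higher group alone, which favours counts of differing genes, also in the gene lists below. Differences are log2 ratios of CPM + 1, which understate those of genes at low levels. Each gene below is given in the order HA control, zero, low and high.

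The genes with the largest excess in high cells included secreted factors, a chromatin protein and a laminin chain. OLFML3, a secreted olfactomedin-domain protein, stood at 3.15, 54.5, 158 and 238 CPM, a log2 difference of 2.11 between high and zero (1.95 to 2.27). It was detected in more and more cells at equal depth: thinned to 10000 UMIs, 3.09% of control cells, 18.6% of zero, 49.5% of low and 72.9% of high cells had an OLFML3 UMI. HMGA2, an architectural chromatin protein, stood at 3.84, 5.92, 20.2 and 37.9 CPM (log2 difference 2.49, 2.08 to 2.91). The activin antagonist FST stood at 17.3, 9.63, 16.7 and 56.0 CPM (log2 difference 2.42). For FST, 3 cells held 31.4% of the UMIs in zero and 21.8% in high cells. With cells also matched on called cell cycle phase, its low against zero log2 difference was 0.21 (-0.17 to 0.59). INHBA, which encodes the subunit of activin A, stood at 50.4, 88.2, 178 and 250.1 CPM (log2 difference 1.49). The activin subunit and the protein that binds activin were thus both higher in high cells.

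LAMB3, the beta chain of laminin-332 in epithelial basement membrane, stood at 4.93, 24.8, 56.1 and 88.5 CPM (log2 difference 1.80). Of the 9 genes listed for laminin-332 and the hemidesmosome, which anchors epithelial cells to that membrane, 7 reached 20 CPM and 6 of these were higher by 1.5-fold, with a median of 0.83. DST, a hemidesmosome linker, stood at 67.9, 94.8, 137 and 194 CPM, while the tetraspanin CD151 was the exception with a log2 difference of -0.21. The kinase SGK1 stood at 9.18, 9.77, 29.0 and 49.8 CPM, so zero cells were close to the control. The EGFR ligand AREG stood at 7.27, 31.2, 47.1 and 97.6 CPM (log2 difference 1.61). The serpin SERPINB7 stood at 6.17, 35.6, 86.2 and 117 CPM (log2 difference 1.69).

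The neutrophil chemokines CXCL1 and CXCL8 were also among the 12 highest. CXCL1 stood at 14.1, 15.3, 42.3 and 59.2 CPM (log2 difference 1.89). CXCL8 stood at 16.7, 29.4, 110.3 and 94.5 CPM, with its highest value in low cells. Few cells carried these chemokines: 3 of the 291 low cells held 70.0% of that group's CXCL8 UMIs and 44.8% of its CXCL1 UMIs. For CXCL8, 3 cells held 42.5% of the UMIs in zero and 28.0% in high cells. The difference of CXCL8 between high and zero ran from 0.44 to 2.56 over the alternative settings. The remaining genes of the 12 were PLCB4, a phospholipase C (log2 difference 1.82), C19orf33 (1.72) and the helicase-like DDX60L (1.70).

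The genes with the largest deficit in high cells included IGF-binding proteins, calprotectin and protease inhibitors. IGFBP5, a secreted binder of insulin-like growth factors, stood at 1490.5, 843, 592 and 160.4 CPM (log2 difference -2.39, -2.48 to -2.30). At 10000 UMIs per cell an IGFBP5 UMI was found in 91.1% of control, 70.4% of zero, 41.2% of low and 21.6% of high cells. For IGFBP5, 3 cells held 21.2% of the UMIs in low and 32.5% in high cells. With cells also matched on called cell cycle phase, IGFBP5 stood at 710 CPM in zero, 714 in low and 153 in high cells. Its low against zero log2 difference was then 0.0084 (-0.0487 to 0.0655). Its relative IGFBP2 stood at 90.3, 41.3, 16.9 and 4.75 CPM (log2 difference -2.88). S100A9 and S100A8, which together form calprotectin, stood at 1399.8, 950.4, 434 and 241 CPM and at 211, 129.7, 43.4 and 18.5 CPM. For S100A8, 3 cells held 50% of the UMIs in high cells, and its low against zero difference of -1.56 was -0.46 with another draw, under 1.5-fold. PI3, the elastase inhibitor elafin, stood at 338, 242, 92.5 and 48.9 CPM (log2 difference -2.29). Of 6 squamous and calprotectin genes at 20 CPM, 5 were lower by 1.5-fold, with a median of -2.03.

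TIMP3, an inhibitor of metalloproteinases, stood at 120.4, 142, 74.8 and 34.6 CPM, and TFPI2, an inhibitor of serine proteases, at 100.2, 90.5, 40.3 and 16.6 CPM. Both were lower in high cells, while zero and control cells differed by less than 1.5-fold. S100A7 stood at 71.4, 70.3, 30.7 and 15.9 CPM, but 3 cells held 49.1% of its UMIs in low cells, and another draw turned its low against zero difference to 0.76. The small heat shock protein CRYAB (log2 difference -2.27), RHOBTB3 (-1.96), PSG9 (-1.91) and the prolyl hydroxylase EGLN3 (-1.84) completed the 12. The genes of the pregnancy-specific glycoproteins, the S100A7 copies, the keratins and the AKR1C family resemble each other closely, and reads may be split between copies.

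**Figure D2:**
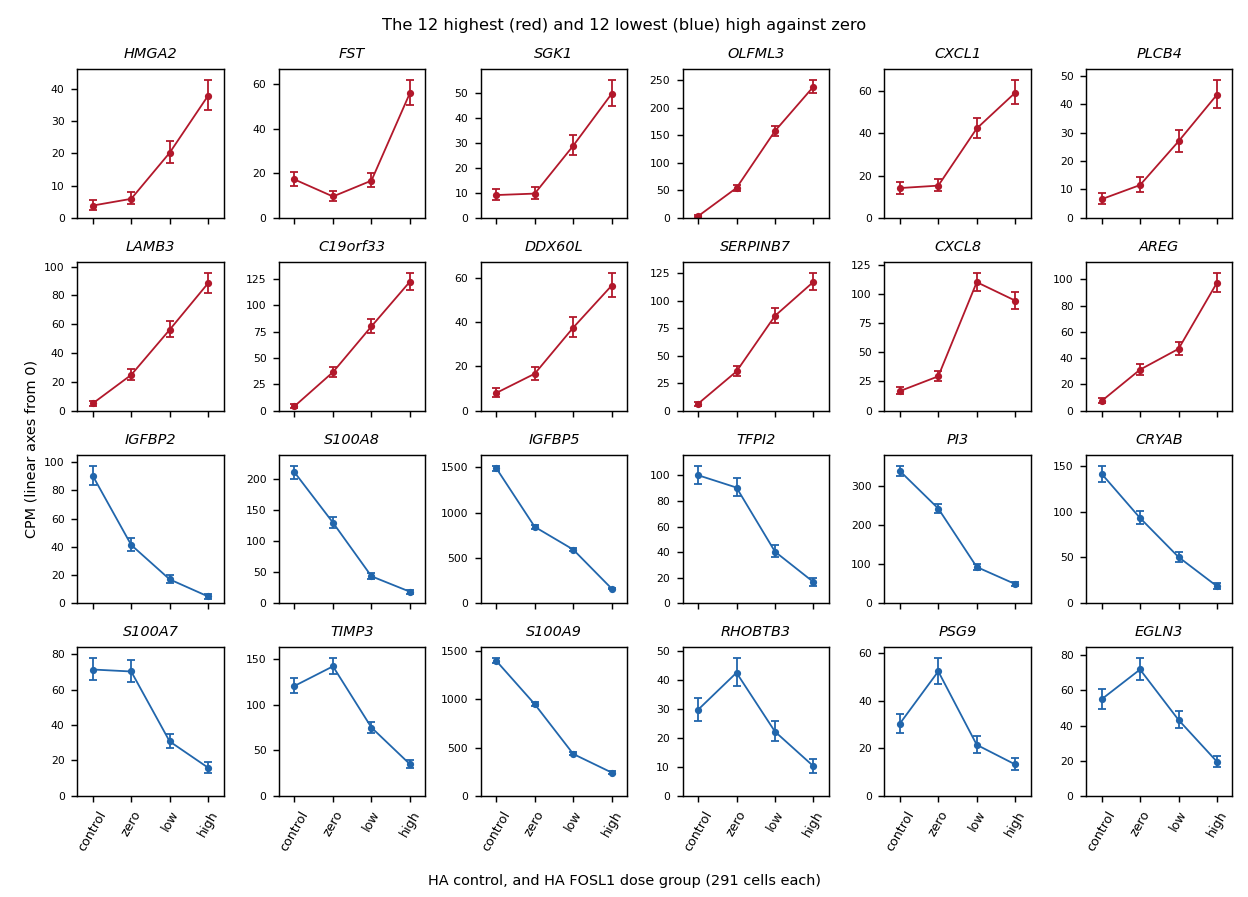
CPM of the 12 genes with the highest and the 12 with the lowest log2 ratio of high against zero cells, in HA control and the 3 dose groups (linear axes from 0, 291 cells each, bars are 95% Poisson intervals). OLFML3 stands at 3.15, 54.5, 158 and 238 CPM, and IGFBP5 at 1490.5, 843, 592 and 160.4 CPM.

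Low cells lay between zero and high cells for nearly every gene that differed. The low value fell between the other two for 254 of the 261 higher genes and for 131 of the 133 lower genes, against 3243 of all 5729 (56.6%). The choice of genes favours this order, since zero and high were chosen to be far apart. The median low value had covered 0.60 of the log2 distance for higher genes and 0.54 for lower genes. Low against zero cells alone, 74 of 5687 genes were higher by 1.5-fold (1.3%) and 50 were lower (0.879%).

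The levels of OLFML3 and IGFBP5 in finer steps of dose are given as a description, since the same cells chose these genes. Cells between 20000 and 40000 UMIs were split at 0, below 0.5, below 1, below 2 and 2 or more FOSL1 UMIs per 10000, with 362, 181, 157, 133 and 68 cells. FOSL1 stood at 0, 38.5, 75.8, 147 and 319 CPM in these steps. OLFML3 stood at 56.9, 132, 184, 215 and 259 CPM. IGFBP5 stood at 856, 732, 599, 154 and 48.1 CPM. OLFML3 was higher and IGFBP5 lower at each further step. The steps were not matched on phase. Beside the threshold, the 39 cells from 0.9 to below 1 had OLFML3 at 238 and IGFBP5 at 485 CPM. The 13 cells from 1 to below 1.1 had OLFML3 at 277 and IGFBP5 at 43.5 CPM.

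A DNA motif of AP-1 was looked for in the promoters of the genes that differed. The motif TGAGTCA was searched on both strands, which on the other strand reads TGACTCA, in RefSeq windows of 300 bases (250 before to 50 after the gene's start, GRCh38.p14). Of 261 higher genes, 213 had a window and 15 of these (7.04%) held the motif. Of 133 lower genes, 106 had a window and 3 (2.83%) held it. The share was 2.75% over 4837 windows of the genes compared and 4.92% over 27305 windows of all genes. The match describes letters in a short window and says nothing about binding. The sites in the 8 higher genes with the largest log2 difference among those with a match are shown, chosen after their values were seen, with 11 bases on each side and the motif in capitals.
CXCL8 (chr4:73740421-73740449, plus strand): aggaagtgtgaTGACTCAggtttgccctg
RGMB (chr5:98768386-98768414, plus strand): agtgacctcccTGAGTCAggatacttgag
DST (chr6:56954788-56954816, minus strand): tcgctgtctgcTGAGTCAtggcaagcgct
MMP7 (chr11:102530797-102530825, minus strand): aaacactcaaaTGAGTCAcctatttccac
LYST (chr1:235883821-235883849, minus strand): tcagggaattaTGACTCAtaggagccacc
S100A3 (chr1:153549466-153549494, minus strand): ggaatcaggagTGAGTCActgggctagca
EMP1 (chr12:13196540-13196568, plus strand): gtctgtgtgtcTGAGTCAgagagagccta
SDCBP2 (chr20:1329208-1329236, minus strand): ccagtccaaggTGAGTCAgctgaacaggg

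The CXCL8 site began 137 bases before the gene's start, and the DST site lay 25 bases after its start. MMP7, a matrix metalloproteinase, stood at 38.7, 42.9, 82.9 and 87.8 CPM in control, zero, low and high cells, and EMP1, an epithelial membrane protein, at 16.3, 48.6, 58.9 and 82.5 CPM. CXCL8 was the 1 gene with the motif among the 9 of the 12 highest genes that had a window, and none of the 10 windows of the 12 lowest genes held it. The CXCL8 difference was not stable, from 0.44 to 2.56 over the alternative settings. The 250 bases before the CXCL8 start (chr4:73740319-73740568, plus strand) are given because this gene has the motif and is among the 12 highest, with the motif in capitals.
CXCL8: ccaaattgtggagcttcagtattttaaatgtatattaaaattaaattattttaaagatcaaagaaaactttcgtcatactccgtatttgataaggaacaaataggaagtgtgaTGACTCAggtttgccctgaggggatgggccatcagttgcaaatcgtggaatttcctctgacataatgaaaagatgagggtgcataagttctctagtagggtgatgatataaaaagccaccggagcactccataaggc

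Zero cells of HA FOSL1 were not the same as control cells. Of 5752 genes, 211 were higher by 1.5-fold or more in zero cells than in matched HA control cells (3.67%) and 188 were lower (3.27%). The share higher among them was 52.9%, and it was 70.1% without matching on depth. These compare 1 sample with another, and the comparison shares the zero cells with that of high against zero, so the levels are given side by side. OLFML3 differed by 3.74 on the log2 scale between zero and control cells, and the hair keratin KRT34 also stood higher in zero cells (3.43, 52.8, 78.9 and 97.4 CPM). Few cells carried KRT34: 3 cells held 49.5% of its UMIs in zero and 72.0% in control cells, and 7.56% of zero cells had a KRT34 UMI at 10000 UMIs. Caveolin gene CAV1 stood at 344, 977, 1662 and 1961 CPM. The simple keratins KRT8, KRT18, KRT19 and KRT7 were higher in zero than in control cells by a median of 0.88, and by a median of 0.15 in high over zero cells. An earlier comparison of the whole HA FOSL1 sample with HA control in these data named 14 raised and 14 lowered genes. That comparison included the high cells, so the counts of these genes between high and zero partly restate that choice. Of the 14 raised genes 12 were higher by 1.5-fold in high than in zero cells (median 1.41), among them the kallikrein protease KLK6 (21.8, 114.9, 217 and 291 CPM). Of the lowered genes only 4 reached 20 CPM, and these 4 were lower by 1.5-fold. A lowered gene can reach this mean through its zero cells alone, which favours such a count. Below 20 CPM the Wnt antagonist SOSTDC1 stood at 40.4, 6.74, 3.29 and 1.63 CPM.

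Some genes stood above the control in zero cells and were lower again at high dose. The basal keratin KRT17 stood at 509.7, 1241, 959.6 and 711 CPM. TAGLN, an actin-binding gene of smooth muscle and mesenchymal cells, stood at 27.7, 117, 70.4 and 43.6 CPM. The share of cells with a TAGLN UMI at 10000 UMIs followed the same order, with 13.1%, 32.6%, 22.7% and 14.8%. The tropomyosin TPM1 stood at 1785, 2627, 2108 and 1622 CPM, and the adhesion receptor ICAM1 at 56.5, 126, 97.3 and 62.4 CPM. The collagen chain COL5A2 stood at 20.6, 103, 94.0 and 76.8 CPM, a smaller decline from zero to high (log2 difference -0.42, -0.58 to -0.26). MX1, an interferon-stimulated gene, stood at 14.8, 34.0, 25.4 and 20.8 CPM. Of 5 mesenchymal genes at 20 CPM, 3 were lower by 1.5-fold in high than in zero cells and VIM alone was higher (7.95, 17.3, 39.0 and 52.0 CPM).

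**Figure D3:**
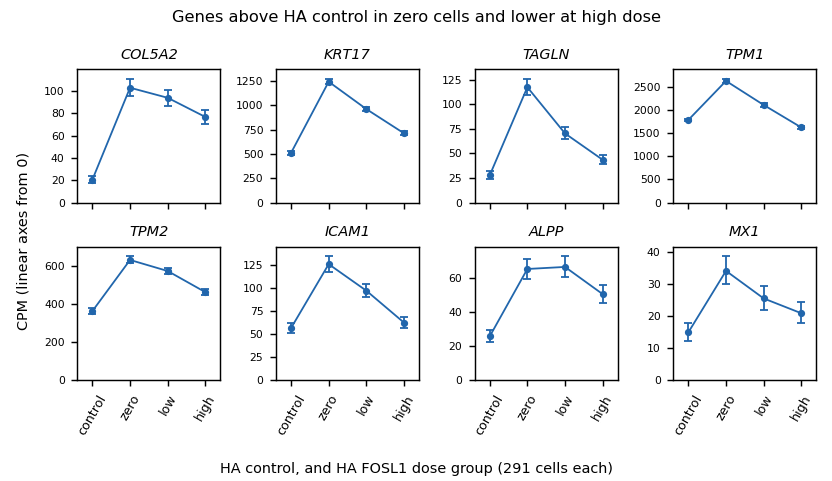
CPM of 8 genes in HA control and in the zero, low and high groups (linear axes from 0, 291 cells each, bars are 95% Poisson intervals). Each gene is higher in zero cells than in control cells and lower in high than in zero cells, as KRT17 with 509.7, 1241, 959.6 and 711 CPM; the genes were picked from the named genes for this pattern.

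Cell cycle genes moved with the dose groups. In the matched sets 36.8% of zero cells (exact binomial interval 31.2% to 42.6%), 41.2% of low cells (35.5% to 47.1%) and 56.0% of high cells (50.1% to 61.8%) were called in G2/M. The calls are scores of gene lists and were not read as cycling. Control cells at the same depth had 58.4% (52.5% to 64.1%), so zero cells were the lowest group. The distance to the control depended on the matching, which drew deeper control cells. Over all kept cells the G2/M share was 39.3% in HA control and 34.6%, 40.7% and 58.4% in zero, low and high cells. Of 49 G2 and M phase genes at 20 CPM, 20 were higher by 1.5-fold in high than in zero cells (median 0.53). CENPF, a kinetochore protein of G2 and mitosis, stood at 511, 283, 314 and 409 CPM. With groups matched on depth and on the called phase (278 cells in each dose group and 277 control cells), the G2 and M median was 0.25 and 2 genes were higher by 1.5-fold. The same list scored the phase calls, so matching on them lowers its difference by construction. The squamous median was then -1.79 and the hemidesmosome median 0.82. The phase-matched groups had 386 genes apart in all, and 310 of the 394 genes were apart on the same side. The zero against control count was 287 with the phase matched and 399 without.

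**Figure D4:**
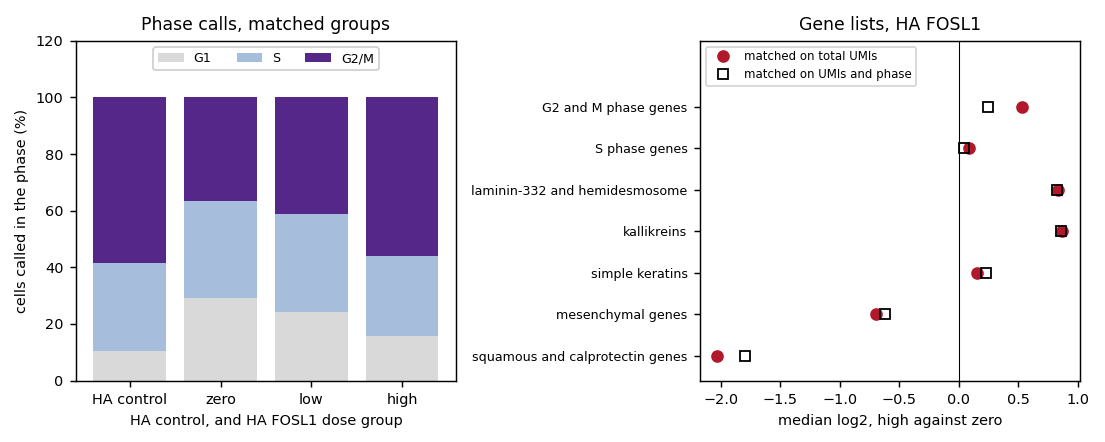
Left, percentage of matched cells called in G1, S and G2/M (G2/M 58.4% in HA control, 36.8% in zero, 41.2% in low and 56.0% in high cells). Right, median log2 ratio of high against zero cells per gene list, with cells matched on total UMIs (red circles) or on total UMIs and called phase (open squares). The G2 and M list moves from 0.53 to 0.25, which the matching favours because this list also scored the phase calls.

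Further gene groups follow by their counts. Of 11 AP-1 subunit genes besides FOSL1, 5 reached 20 CPM and none was apart by 1.5-fold, with a median of -0.17. FOS, a member of the same family as FOSL1 and below that level, stood at 59.9, 19.3, 9.06 and 8.96 CPM. JUN stood at 209, 154, 126 and 112 CPM. Of 8 textbook AP-1 targets at 20 CPM, 2 were higher (AREG and CXCL8) and 1 lower, and the matrix metalloproteinases MMP1, MMP3, MMP10 and MMP13 had no UMI in the matched cells (upper limit of MMP1 0.507 CPM in zero cells); these 4 are named because they were at 0. Of 3 kallikrein proteases at 20 CPM (median 0.87), KLK6 and KLK10 were higher by 1.5-fold and KLK5 was not (296, 603, 805 and 861 CPM). Within Wnt signalling, DKK1 stood at 54.3, 133, 236 and 272 CPM and SFRP1 at 475, 263, 181 and 139 CPM, both antagonists and in opposite directions. Hypoxia and glycolysis genes (7 at 20 CPM), the unfolded protein response (10) and S phase genes (30) had none apart by 1.5-fold.

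Several lists were mixed, with members on both sides. Of 12 TGF-beta, activin and BMP genes at 20 CPM, 5 were higher by 1.5-fold and 2 were lower (median 0.18). The higher ones held the ligand TGFB1 (11.7, 15.8, 29.1 and 35.1 CPM) and the receptor TGFBR1 (13.0, 21.6, 30.9 and 44.9 CPM) beside INHBA and FST. TGFB1 and FST were below 20 CPM in zero cells and reached that mean only through high cells, which favours the count of higher genes. The lower ones were ID3 (57.8, 78.8, 48.3 and 32.6 CPM) and ID4 (127, 132, 98.7 and 53.5 CPM), inhibitors of helix-loop-helix factors that BMP signals are known to raise. Of 8 NF-kB and inflammatory genes, 3 were higher (CXCL1, CXCL8 and BIRC3) and ICAM1 was lower. Among 6 basal and stress keratins KRT14 and KRT15 were higher and KRT17 was lower. KRT14 stood at 56.9, 177, 329 and 409 CPM, and KRT16 stood at 61.8, 255, 278 and 273 CPM. The KRT16 values lay above the control in all 3 dose groups. Of 6 interferon-stimulated genes MX1 and BST2 were lower and none was higher (median -0.30). Of 6 EGFR and MAPK feedback genes AREG and PHLDA1 were higher (median 0.40). Of 7 AKR1C and NRF2 genes AKR1C1 alone was lower (125, 36.2, 22.4 and 13.2 CPM). Its close relative AKR1C2 stood at 128, 32.1, 15.2 and 7.60 CPM (log2 difference -1.94) and was not counted, since its mean was just under 20 CPM. The genes TGFB1, TGFBR1, ID3, BIRC3, BST2 and KRT15 were chosen after their values were seen.

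The same split was made in the 2 guide samples to ask which dose differences recur. These samples had no part in choosing the 24 genes or the 261 and 133 genes above, but they are in the 3-sample fit below, which named 12 genes. The guide samples had 545 and 857 matched cells per group and FOSL1 at 209.0 and 204.1 CPM in high cells. In a fit of the guide samples alone (edgeR, adjusted p under 0.05, 2 residual degrees of freedom), 1066 of 13260 genes were higher (8.04%) and 849 lower (6.4%). Of the 261 genes higher in HA FOSL1, 177 were higher there too (67.8%) and none was lower, against 15.2% higher among the 5729 genes. Of the 133 lower genes, 86 were lower there too (64.7%) and 6 were higher, against 8.08% lower among the 5729 genes. The guide groups, here and in the fits below, were matched on depth and not on phase. Over their kept cells, G2/M calls were 29.5% in zero and 50.7% in high cells of gRNA2, and 27.8% and 50.5% of gRNA3. The part of phase in the recurrence was not tested. Across the 5729 genes the log2 ratios of HA FOSL1 had Pearson r 0.57 and Spearman rho 0.45 with gRNA2, and 0.63 and 0.51 with gRNA3. Genes are not independent and the samples shared 1 library. For the split of control cells, low against zero ratios of HA FOSL1 had Pearson r 0.38 with those of HA control and 0.33 with those of VPR control. In low against zero, the earlier raised genes at 20 CPM had medians of 0.52 in HA control and 0.58 in VPR control. The medians were 0.64 with gRNA2, 0.45 with gRNA3 and 0.90 in HA FOSL1. Squamous and calprotectin medians were -0.47, -0.46, -0.47, -0.49 and -1.15 in the same order. Such differences thus also occurred in control cells, and their cause was not tested.

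A fit of the 3 FOSL1 samples with the sample as block (9 sums, edgeR, 4 residual degrees of freedom) called 885 of 12858 genes higher in high than in zero cells (6.88%) and 703 lower (5.47%). The total was 1588, and it was 794 without gRNA2 and 769 without gRNA3. HA FOSL1 is 1 of the 3 samples and chose the 24 genes, so their calls in this fit (12 of the 12 highest and 8 of the 12 lowest) restate that choice. The guide fit, which leaves HA FOSL1 out, called 10 of the 12 and 9 of the 12 on the same side. By the 3-sample fit, IL7R, a cytokine receptor gene, rose by 1.53 ± 0.10 (SE, edgeR adjusted p = 5.6e-07), with HA FOSL1 at 14.4, 61.6, 152 and 179.8 CPM. CAV1 rose by 0.91 ± 0.04 (adjusted p = 9.5e-09), DKK1 by 1.12 ± 0.06 (adjusted p = 1.1e-07) and VIM by 1.49 ± 0.13 (adjusted p = 7.5e-06). In HA FOSL1, 3 cells held 23.0% of the VIM UMIs in zero, 28.2% in low and 26.1% in high cells. The tight junction gene CLDN10 fell by 1.28 ± 0.09 (adjusted p = 1.1e-06), with HA FOSL1 at 163, 65.8, 32.1 and 18.7 CPM. IGFBP5 fell by 2.18 ± 0.14 (adjusted p = 5.7e-07). IL7R, VIM, CLDN10 and IGFBP5 were named among the largest called rises and falls of this fit, so their p-values restate that choice. CAV1 was named from the earlier comparison with HA control, and HA FOSL1 cells are also in this fit. Of the G2 and M genes 47 of 52 tested were higher and none was lower.

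Sizes differed between HA FOSL1 and the guides for part of the genes. The test of that difference (interaction of HA and high dose, 2 residual degrees of freedom) called 376 of 12858 genes with a more positive effect in HA FOSL1 (2.92%) and 498 with a more negative one (3.87%). HA FOSL1 is 1 sample and is fitted exactly here, so the p-values of this fit measure the spread between the guide samples only. The fit takes the HA sums, from fewer cells, to vary like the guide sums, so its p-values may be too small. HMGA2 differed between high and zero cells by 2.49 in HA FOSL1, by 0.24 with gRNA2 and by 0.54 with gRNA3 (difference 2.11 ± 0.33 SE, adjusted p = 1.5e-05). TIMP3, with -0.09 and -0.22 in the guide samples, was farther below 0 in HA FOSL1 (difference -1.88 ± 0.11, adjusted p = 2.8e-16). These genes were chosen for their HA values, which favours a larger effect in HA FOSL1. For the gene lists, 6 of 9 hemidesmosome genes had a more positive effect and 5 of 8 squamous genes a more negative effect in HA FOSL1, and of the 52 G2 and M genes 4 had a more positive and 1 a more negative effect. IL7R (difference 0.02 ± 0.13, adjusted p = 0.95), VIM (0.10 ± 0.22, adjusted p = 0.87) and DKK1 (-0.15 ± 0.07, adjusted p = 0.30) did not pass the test of the difference.

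**Figure D5:**
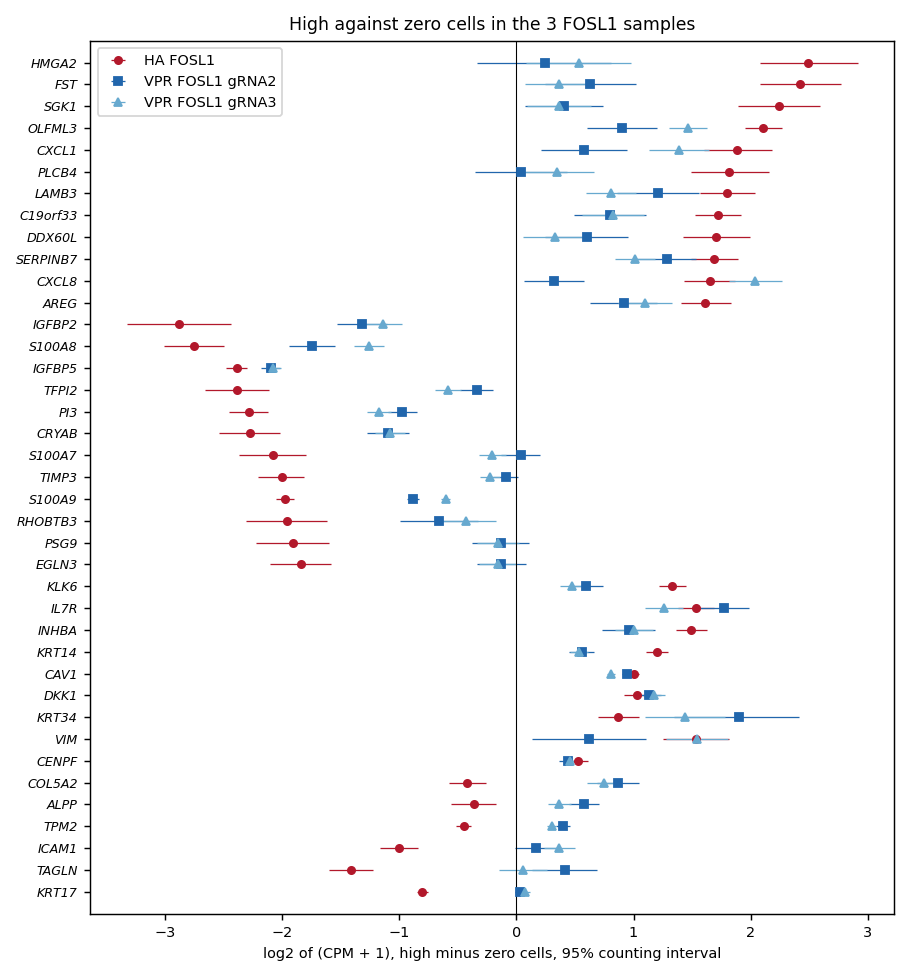
Log2 ratio of CPM + 1 between high and zero cells in HA FOSL1 (red), gRNA2 (dark blue) and gRNA3 (light blue), for the 24 genes and 15 further named genes, with 95% counting intervals. HMGA2 is 2.49, 0.24 and 0.54, IL7R is 1.53, 1.77 and 1.26, and COL5A2 is -0.42, 0.87 and 0.75.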

How the data were processed

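The 5 hashed samples of 1 droplet library (10x 3' v3) were deposited as 1 matrix of raw UMI counts made by the authors with Cell Ranger 4, per the file headers, on hg38, per the submitters' processing notes. The deposited table gives each of 21228 called cells a hashtag and an assignment probability, a fraction made by the authors; no source used here names the tool. HA FOSL1 cells carry a hashtag named GOF FOSL1, taken as HA by elimination. Called cells without an assignment were left out, and no doublet caller was run, so doublets within a sample may remain. No barcode was shared between samples.

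UMIs were summed over matched cells (seeded draw, 11 strata) and scaled to CPM. Log2 ratios used CPM + 1 and exact conditional binomial 95% intervals, levels Poisson intervals and shares Clopper-Pearson intervals, all of counting error only. A gene was counted at 1.5-fold, a mean of 20 CPM and an interval without 0. Phases were scored with scanpy 1.11.5. Sums per sample and dose were fitted with edgeR 4.0.16 (TMM, filterByExpr, glmQLFit, Benjamini-Hochberg adjusted p under 0.05), with DESeq2 1.42.0 as an alternative. Ratios and fits were tested on simulated data. P-values measure the spread between the samples of a fit, which shared 1 pool. In the fit of the difference that spread is between the guide samples only.

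The members, the 22 gene lists and the tests were chosen with earlier results of these data known. Named genes are FOSL1, the 12 with the highest and the 12 with the lowest high against zero ratio, the members of the 2 lists from the earlier comparison, up to 4 members with the highest mean of each other list, and the 6 strongest rises and 6 strongest falls of the 3-sample fit; other names are stated as chosen after their values were seen. Of 33538 genes, 48 share a symbol with another entry.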

Additional observations from a re-analysis of the deposited data

Results flagged for a closer look

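Genes from the lists, outside the 24 with the largest HA differences, were looked at for a dose effect of opposite sign in HA FOSL1 and both guide samples together with a call in the guide fit and a called difference (edgeR, adjusted p under 0.05). COL5A2 was lower by 0.42 in high than in zero cells of HA FOSL1 and higher by 0.87 with gRNA2 and by 0.75 with gRNA3; the difference was -1.25 ± 0.11 (SE, adjusted p = 7.0e-12). ALPP, a placental alkaline phosphatase with close relatives that may share reads, differed by -0.84 ± 0.12 (adjusted p = 2.0e-06), with -0.37 in HA FOSL1 and 0.58 and 0.37 in the guide samples. The tropomyosin gene TPM2 differed by -0.81 ± 0.05 (adjusted p = 6.5e-16), with -0.45, 0.40 and 0.30. ICAM1 differed by -1.33 ± 0.11 (adjusted p = 4.1e-12), with 0.17 and 0.37 in the guide samples and a lower level in high than in zero cells of HA FOSL1. Of 88 named genes outside the 24 and the genes chosen by the fit, 38 passed the test of the difference, against 2.92% more positive and 3.87% more negative over all genes tested; part of the 88 came from earlier results of these data. Many of the 88 were picked as list members with the highest means, so the shares over all genes tested are not a like background. In the guide fit, 8.04% of all genes tested were higher, against 15.2% of the 5729 genes at 20 CPM. The p-values of the difference may be too small, since they measure the spread between the guide samples only. Each HA sum also comes from 291 cells and the guide sums from 545 and 857.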

How the results depend on the processing

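Of 24 genes with the largest differences, none changed side in high against zero under any alternative run. The 394 genes apart between high and zero became 630 with high set at 2 or more UMIs per 10000 (100 cells per group), 190 at a mean of 50 CPM, 1412 with no filter and 1210 at a smaller fold threshold. The 124 apart between low and zero became 202 with cells thinned to 10000 UMIs, 66 at 50 CPM, 698 with no filter and 577 at a smaller fold threshold. The 399 apart between zero and control became 168 at 50 CPM, 1467 with no filter and 1373 at a smaller fold threshold, and the share higher among them moved from 52.9% to 70.1% without matching and to 64.6% with weighted strata. Opposite signs included S100A7 in low against zero (0.76 with another draw) and CXCL8 in zero against control (-0.33 with cells of at least 90% own-hashtag UMIs). They also included PSG9 in zero against control (-0.0355 with at most 10% mitochondrial UMIs). With the phase matched, the sign turned for IGFBP5 in low against zero (0.0084). In zero against control it turned for CXCL1 (-0.14) and S100A7 (0.42), whose main differences were small. The cause was not tested. The hashtag and mitochondrial settings were chosen after seeing the data. DESeq2 called 723, 401 and 99 genes in the 3-sample, guide and difference fits, against 1588, 1915 and 874. Without matching the first 2 fits called 3658 and 3807. Leaving out 1 sample of the 3-sample fit gave 769 to 1915 calls, and without the sample as block it gave 20. Dose groups of a sample were compared within it, with the sample as block; by replicate number, no paired analysis was possible because each group holds 1 sample. Precision is limited by 291 cells per group and by 2 to 4 residual degrees of freedom.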
